A study of Homo sapiens with 6 samples.

Results

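The genes described here encode the BH3-only proteins and their relatives BNIP3 and BNIP3L, a family of 10 by name (BCL2L11, BBC3, PMAIP1, BAD, BID, BIK, BMF, HRK, BNIP3 and BNIP3L). They were taken by symbol, and each was found once among the 58233 Ensembl identifiers of the count table. RNA sequencing gave their mRNA levels in OCI-AML2 cells, an established cell line from a human acute myeloid leukemia, after CRISPR editing. There were 3 libraries labelled IKZF1-ko, in which the gene for the blood cell transcription factor Ikaros was targeted. They were set against 3 libraries labelled NT control, from cells with a non-targeting control, to find genes tied to IKZF1 loss, within a larger study of the drugs palbociclib and venetoclax. No drug is named for these libraries. The study's design speaks of 3 cell lines in each group and the extraction protocol of triplicates. Neither says how the replicates relate to single clones or pools of edited cells, so p-values measure only the spread between these libraries, part of which may be technical.

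BH3-only proteins start the mitochondrial route of apoptosis. They carry a short helix, the BH3 domain, that fits a groove on the anti-apoptotic proteins BCL2, BCL-XL and MCL1, and some of them also switch on the pore-forming effectors BAX and BAK directly. Venetoclax is a small molecule that occupies this groove on BCL2, so cells whose BCL2 holds BH3-only proteins such as BIM are the ones known to be sensitive to it. BNIP3 and BNIP3L (also called NIX) sit in the outer mitochondrial membrane, bind autophagy proteins and mark mitochondria for removal, and are classical targets of the hypoxia-inducible factor HIF.

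The 6 libraries held 11300519 to 18214328 counts each, and 13028 genes had enough counts to be tested. IKZF1 mRNA was at 421 to 436 CPM (counts scaled to a fixed library total with TMM factors) in the libraries labelled IKZF1-ko, against 292 to 334 CPM in NT control. It was thus not lower, and since counts per gene show neither an edited sequence nor the protein, this does not check the labels: all directions are those of the libraries so labelled. The main split between libraries did not follow the groups. IKZF1-ko replicate 1 and NT control replicate 2 stood apart from the other 4 libraries on the first principal component of log2 CPM, which held 67.6% of the variance. No label names a batch or culture day that they share. Of 11 myeloid marker genes 10 averaged at least 1 CPM (KIT was the exception). The T cell markers CD3E, CD3G and CD2, 3 of 4 listed, and the epithelial markers EPCAM, KRT18 and CDH1, also 3 of 4, had 0 counts in every library. PAX5, at 12.4 CPM, was the B cell marker and PDGFRB, at 25.9 CPM, the fibroblast marker that passed 1 CPM.

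Of the 10 genes, 8 were expressed well enough to be tested, and 2 were not: BIK and HRK. The clearest group difference was in BCL2L11, the gene of BIM, but it was not seen in IKZF1-ko replicate 1. The other 2 libraries labelled IKZF1-ko had less of its mRNA than every other library, while replicate 1, at 123 CPM, was among the highest. The groups thus overlapped, and on group alone 0 of the 8 genes passed. The largest differences of all, however, lay between libraries of the same group. BNIP3 and BNIP3L were far higher, and PMAIP1 lower, in IKZF1-ko replicate 1 and NT control replicate 2 than in the other 4 libraries. BBC3, BMF and BCL2L11 were also higher there, and BID was lower. Of all tested genes 32.5% had both these libraries above the other 4, and 31.5% below.

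**Figure D1:**
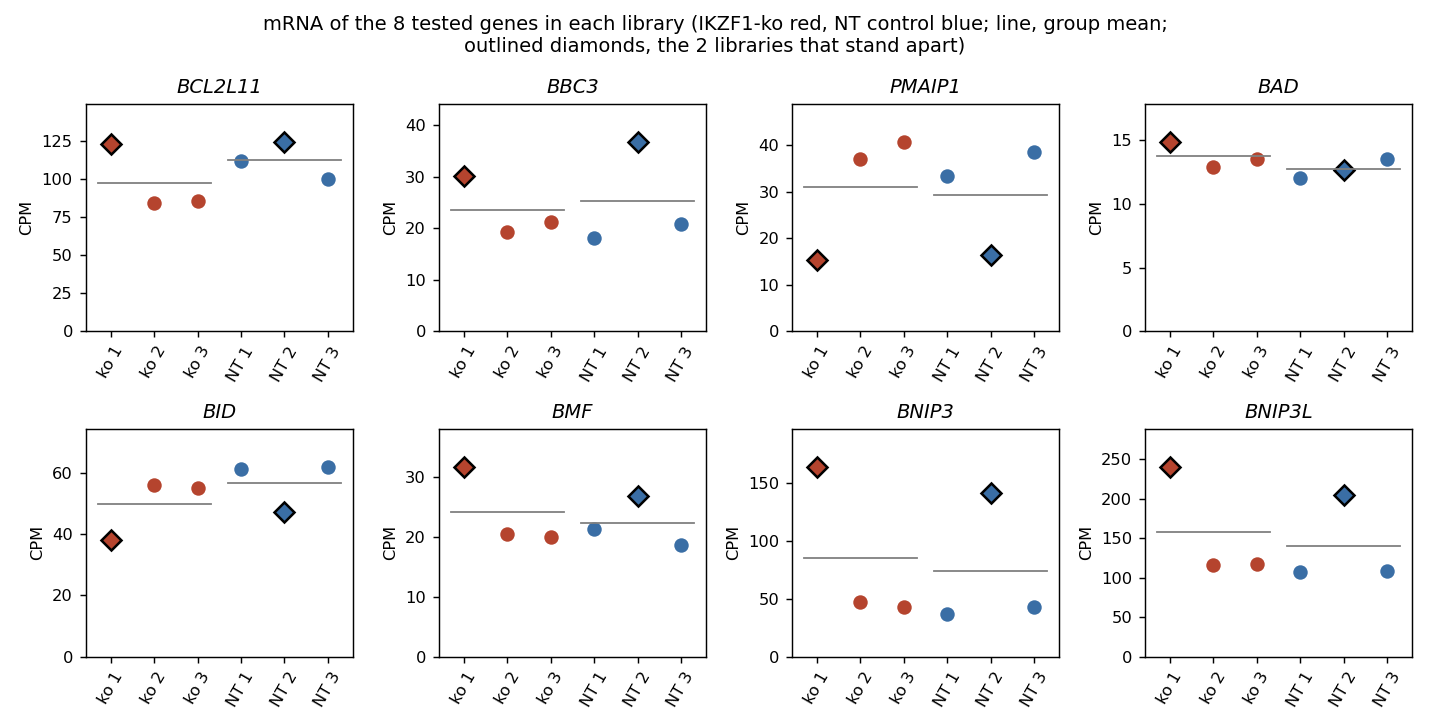
Level of each of the 8 tested genes, in CPM from 0 on the vertical axis, in the 3 libraries labelled IKZF1-ko (ko, red) and the 3 NT control libraries (NT, blue); grey lines are group means. The outlined diamonds, IKZF1-ko replicate 1 and NT control replicate 2, lie above the other 4 libraries for BNIP3 and BNIP3L and below them for PMAIP1 and BID.

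Promoter sequences are shown for 4 genes of the family, each with a motif that it holds marked. They are RefSeq windows on GRCh38.p14, from 250 bases before to 50 bases after an annotated start, read 5′ to 3′ on the gene's strand. Windows were found for 8 of the 10 genes, 14 windows in all, and BIK and BNIP3L were not among them. BNIP3 (chr10:131981874-131982173, minus strand) and BBC3 (chr19:47232618-47232917, minus strand) both hold ACGTG, a form of the core of the hypoxia response element, within CACGTG, in capitals. Other forms of this core were not searched. BCL2L11 (chr2:111120664-111120963, plus strand) holds GTAAACA, a forkhead motif of the FOXO type, in capitals. In PMAIP1 (chr18:59899746-59900045, plus strand) capitals mark GGGAA, the core of the Ikaros motif, or TTCCC, the same on the other strand.
BNIP3: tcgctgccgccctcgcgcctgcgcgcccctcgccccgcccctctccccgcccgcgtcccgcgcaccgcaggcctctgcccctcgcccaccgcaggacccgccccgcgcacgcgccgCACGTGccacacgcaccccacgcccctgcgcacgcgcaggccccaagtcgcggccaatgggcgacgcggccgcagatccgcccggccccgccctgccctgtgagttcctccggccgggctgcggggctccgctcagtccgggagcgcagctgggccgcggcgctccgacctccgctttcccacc
BBC3: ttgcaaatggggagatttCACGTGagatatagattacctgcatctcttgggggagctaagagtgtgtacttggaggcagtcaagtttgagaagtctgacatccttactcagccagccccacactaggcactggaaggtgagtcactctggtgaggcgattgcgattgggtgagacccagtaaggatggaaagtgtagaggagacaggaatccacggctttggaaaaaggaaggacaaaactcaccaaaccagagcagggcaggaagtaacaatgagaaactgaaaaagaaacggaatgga
BCL2L11: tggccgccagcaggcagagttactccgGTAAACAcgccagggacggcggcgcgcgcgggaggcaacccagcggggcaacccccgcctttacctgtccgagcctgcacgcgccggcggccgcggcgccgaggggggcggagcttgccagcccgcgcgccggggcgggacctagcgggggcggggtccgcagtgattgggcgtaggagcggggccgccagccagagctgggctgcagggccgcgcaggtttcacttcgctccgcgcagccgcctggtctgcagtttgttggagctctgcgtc
PMAIP1: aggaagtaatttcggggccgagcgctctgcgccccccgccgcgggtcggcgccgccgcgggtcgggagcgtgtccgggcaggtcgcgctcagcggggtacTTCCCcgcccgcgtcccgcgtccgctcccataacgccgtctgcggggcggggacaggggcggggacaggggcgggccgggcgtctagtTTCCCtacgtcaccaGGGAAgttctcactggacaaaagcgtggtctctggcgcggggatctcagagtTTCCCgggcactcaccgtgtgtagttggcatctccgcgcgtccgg

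Each motif was searched on both strands, and ACGTG is part of CACGTG, the E-box, whose palindrome gives ACGTG on both strands at once. ACGTG was present in the windows of BNIP3 (134 bases before the start), BBC3 (232 bases before) and 2 of 5 windows of BID. Those BID windows overlap and share the site. In all, 4 of the 14 windows of the family (28.6%) held ACGTG, beside 21.4% of all 35116 windows of this length. Of the 40 windows of other HIF target genes listed here 55.0% held it. CACGTG stood at the same sites of BNIP3, BBC3 and BID, and in 7.26% of all windows. GTAAACA was present in BCL2L11 alone among the windows of the family, 223 bases before the start, and in 3.42% of all windows. GGGAA was found in 9 of the 14 windows of the family (64.3%), about the share of all windows that held it (65.0%). It stood at 4 places in the PMAIP1 window, at 1 place in the BNIP3 window, both BAD windows, 1 of 2 BMF windows and 4 of 5 BID windows, and in none of the BCL2L11, BBC3 and HRK windows. These are matches of letters and not measured binding.

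Among the BH3-only genes whose proteins can activate BAX and BAK directly, BCL2L11 (ENSG00000153094, GRCh38 chromosome 2, 111119378 to 111168447) was the most highly expressed. It had 123, 84.1 and 85.5 CPM in IKZF1-ko replicates 1, 2 and 3, against 112, 124 and 100.2 CPM in NT control replicates 1, 2 and 3. Replicates 2 and 3 of IKZF1-ko were the lowest libraries, while replicate 1 lay beside the highest NT control library, so the groups overlapped. Group means were 97.4 ± 21.9 CPM in IKZF1-ko and 112 ± 12.1 CPM in NT control (SD, n = 3 each). On group alone, edgeR's quasi-likelihood test gave a log2 fold change of -0.20 (95% interval -0.62 to 0.22, adjusted p = 1.00). When a term for this split (the library-set term) was added, BCL2L11 fell by 0.22 on the log2 scale (SE 0.063, edgeR adjusted p = 0.032). Within the 4 like libraries alone it fell by 0.32 (SE 0.058, edgeR adjusted p = 2.1e-04), a level 1.25-fold lower. The 4 were picked from these counts and leave out IKZF1-ko replicate 1, at 123 CPM, so this adjusted p takes the choice as known. Replicates within them lay close: a chi-square of counts per degree of freedom was 2.26 in NT control and 2.31 in IKZF1-ko. Between replicates of a group from different sets it was 53.5 to 64.5. In bulk RNA, fewer cells of a kind and less RNA per cell cannot be told apart. Between the 2 libraries that stood apart the difference was -0.02, with no test, and edgeR's interaction of set and group had an adjusted p of 0.091. BCL2L11 was thus lower in the 4 like libraries, while the difference between the sets did not itself pass. In the fit with the term the call was lost without IKZF1-ko replicate 2 (adjusted p = 0.11) or 3 (0.16) and without NT control replicate 1 (0.23) or 3 (0.054). With each of the 4 libraries left out in turn, which leaves 1 library in a group, the log2 fold change was -0.40 to -0.24. The gene shares exon positions with MIR4435-2HG on the opposite strand, which was counted at 11.6 to 16.6 CPM.

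BID (ENSG00000015475, chromosome 22, 17734138 to 17774770) links death receptors to mitochondria, since caspase-8 cleaves its protein to the active form. It had 38.0, 55.8 and 55.0 CPM in IKZF1-ko replicates 1 to 3, against 61.1, 47.2 and 61.8 CPM in NT control replicates 1 to 3. In the set of 4 like libraries, and between the 2 that stood apart, every IKZF1-ko value lay below every NT control value, but the groups as a whole overlapped. The share of all tested genes with such an order within both sets was not counted. With the library-set term BID fell by 0.20 (SE 0.062, edgeR adjusted p = 0.040). The difference was -0.15 in the 4 libraries (adjusted p = 0.12) and -0.31 in the other pair, with no test. Thus BID was lower within both sets, by an amount that passed edgeR's threshold with the term when all 6 libraries were used. Without any 1 of the 6 libraries the call was lost (adjusted p of 0.061 to 0.14).

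BBC3 (ENSG00000105327, chromosome 19, 47220822 to 47232766) encodes PUMA, a potent killer protein. Its levels were 30.1, 19.3 and 21.2 CPM in IKZF1-ko and 18.1, 36.8 and 20.7 CPM in NT control. The libraries that stood apart were the highest of each group, the groups overlapped among the other 4, and of the pair that stood apart the IKZF1-ko library was the lower. The log2 fold change was -0.08 with the library-set term (95% interval -0.28 to 0.12, edgeR adjusted p = 0.65) and 0.06 in the 4 libraries (-0.16 to 0.28). BBC3 shares exon positions with the microRNA genes MIR3191 on its strand and MIR3190 on the other.

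The remaining BH3-only proteins mainly occupy the anti-apoptotic proteins. PMAIP1 (ENSG00000141682, chromosome 18, 59899948 to 59904306) encodes NOXA, which binds MCL1. It had 15.2, 36.9 and 40.7 CPM in IKZF1-ko replicates 1 to 3, against 33.3, 16.3 and 38.4 CPM in NT control replicates 1 to 3. IKZF1-ko replicate 1 and NT control replicate 2 were the lowest, and each of the other 4 libraries had at least 2.04 times their level. Between groups the log2 fold change was 0.06 with the library-set term (95% interval -0.12 to 0.24, edgeR adjusted p = 0.70), and 0.11 in the 4 libraries. The 2 libraries with the most BBC3 mRNA were thus the 2 with the least PMAIP1 mRNA.

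BMF (ENSG00000104081), whose protein is held on the actin cytoskeleton by a dynein light chain, had 31.6, 20.5 and 20.0 CPM in IKZF1-ko, against 21.3, 26.8 and 18.6 CPM in NT control. Here too IKZF1-ko replicate 1 and NT control replicate 2 were the highest. Its log2 fold change was 0.10 with the library-set term (95% interval -0.08 to 0.29, edgeR adjusted p = 0.50). BMF shares exon positions with BMF-AS1 on the opposite strand, which had 0 counts in all libraries.

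BAD (ENSG00000002330), a protein kept inactive by phosphorylation and 14-3-3 binding when growth factors are present, was the steadiest gene of the family. It had 14.9, 12.9 and 13.5 CPM in IKZF1-ko and 12.0, 12.7 and 13.6 CPM in NT control, a range of 1.24-fold. This was the only tested gene of the family in which the libraries that stood apart lay neither above nor below all others. Such a separation was common: of all tested genes 32.5% had both libraries above the other 4, and 31.5% below. Its log2 fold change was 0.11 on group alone (95% interval -0.22 to 0.43) and also with the library-set term (-0.12 to 0.34, edgeR adjusted p = 0.56). BAD shares exon positions with GPR137 on the opposite strand, itself at 12.5 to 15.0 CPM, so its level is uncertain if the counting ignored strand.

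BIK and HRK were close to or at 0. BIK, an endoplasmic reticulum BH3-only protein, had 0, 1 and 0 counts in IKZF1-ko, against 1, 4 and 4 counts in NT control. The ratio of IKZF1-ko to NT control scaled to library size, from 1 count in IKZF1-ko and 9 in NT control, was 0.0838 with a 95% counting interval of 0.0019 to 0.605, which covers counting error only. HRK, a BH3-only gene best known from neurons, had 0 counts in every library, which allows up to 0.164 to 0.262 CPM per library at 3 counts. Neither gene entered the edgeR tests.

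The mitophagy receptor genes were high in 1 library of each group, and BNIP3 varied most of the family, 4.43-fold. BNIP3 (ENSG00000176171, chromosome 10, 131966455 to 131982013) had 164, 47.6 and 43.2 CPM in IKZF1-ko replicates 1 to 3, against 37.1, 141 and 43.0 CPM in NT control replicates 1 to 3. BNIP3L (ENSG00000104765, chromosome 8, 26382898 to 26505636) had 240.0, 116 and 118 CPM in IKZF1-ko, against 107, 204 and 109 CPM in NT control. In both genes those libraries were IKZF1-ko replicate 1 and NT control replicate 2, the other 4 lay close together, and the groups overlapped. The lower of the 2 high libraries had 2.97 times the BNIP3 level and 1.73 times the BNIP3L level of the highest of the others. The BNIP3 range of 2.14 on the log2 scale was wider than that of 97.1% of all tested genes, whose median range was 0.63. For BNIP3L the range was 1.17, wider than that of 81.7% of genes.

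Against that spread the group differences were small. On group alone BNIP3 had a log2 fold change of 0.20, with a 95% interval from -1.47 to 1.87. With the library-set term BNIP3 rose 1.15-fold (log2 0.20, SE 0.063, edgeR adjusted p = 0.046) and BNIP3L rose 1.12-fold (0.16, SE 0.049, adjusted p = 0.038). The 4 libraries alone gave 0.18 and 0.12, with edgeR adjusted p of 0.13 and 0.14. With 1 surrogate variable in place of the term, BNIP3 was at -0.06 and BNIP3L at 0.02, and neither passed (adjusted p = 0.63 and 0.86), so these rises depend on how the difference between the libraries is modelled. BNIP3L lost its call without any 1 of the 6 libraries (adjusted p of 0.055 to 0.15), and BNIP3 kept it only without NT control replicate 3 (0.027) and lost it without any of the other 5 (0.074 to 0.23). BNIP3 has 44 annotated pseudogene copies in the table, which together held 0 to 8 counts per library, at most 0.610% of the BNIP3 count. BNIP3L shares exon positions with PNMA2, at 0 counts, and a pseudogene on the opposite strand.

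**Figure D2:**
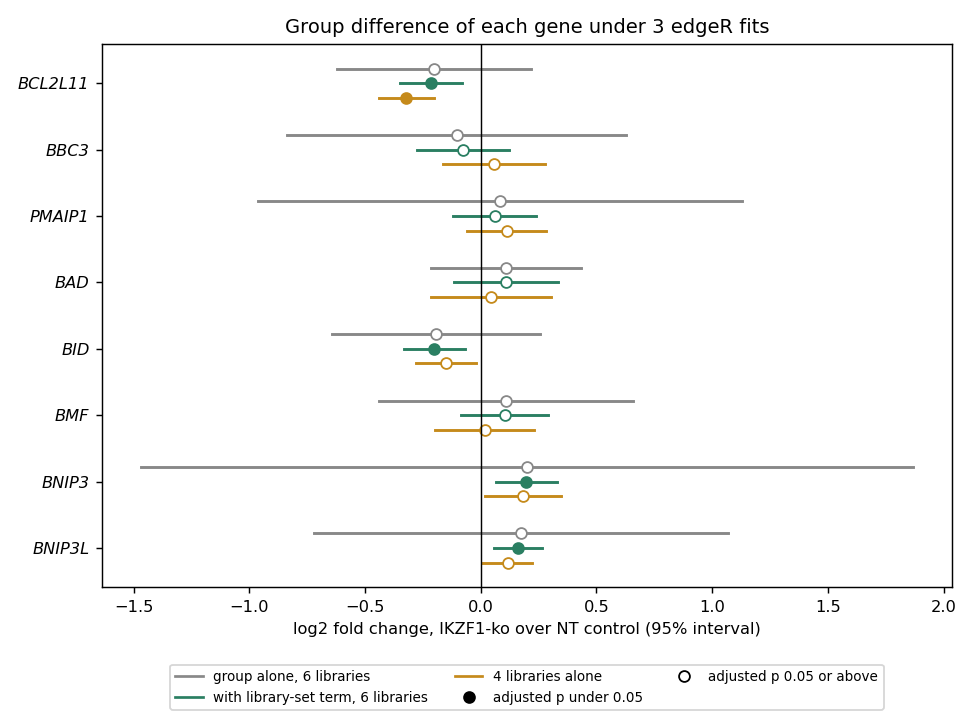
Log2 fold change of IKZF1-ko over NT control with its 95% interval for each of the 8 tested genes, from edgeR on group alone (grey), with a library-set term (green) and in the 4 libraries alone (orange); filled points passed an adjusted p of 0.05. BCL2L11 is the gene with filled points in 2 fits, and the grey intervals are widest for BNIP3, PMAIP1 and BNIP3L.

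By count, 0 of the 8 tested genes passed edgeR on group alone, where 0% of all 13028 genes did. In that fit 3.50% of all genes, and none of these 8, had an unadjusted p under 0.05. With the library-set term 2 rose (BNIP3 and BNIP3L) and 2 fell (BCL2L11 and BID). Of all genes 13.5% passed there, 6.93% higher and 6.62% lower. Within the 4 libraries BCL2L11 fell and the other 7 did not pass, where 14.7% of all genes passed, 7.64% higher and 7.10% lower. With 1 surrogate variable BCL2L11 fell by 0.27 (edgeR adjusted p = 0.013) and the other 7 did not pass, where 8.04% of all genes passed, 4.41% higher and 3.63% lower. BID, BNIP3 and BNIP3L had unadjusted p-values of 0.027 to 0.032 in the fit of the 4 libraries. The median log2 fold change over the 8 genes was 0.10 on group alone, 0.08 with the term and 0.05 in the 4 libraries, beside 0.001, 0.002 and 0.002 over all genes. With the surrogate variable it was -0.02, beside 0.004 over all genes. The sets were found in these same counts, so p-values of the fit with the term and of the 4 libraries take them as known. Among those 4 libraries the depth was 18214328 and 16751839 counts in IKZF1-ko, against 11699047 and 11300519 in NT control, and the part of depth in these calls was not tested.

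Levels of different genes were set side by side per kilobase of merged exon, which is longer than most single transcripts and so only approximates transcript number. BNIP3L was the most abundant, with a mean of 34.6 CPM per kilobase and a range over libraries of 24.8 to 55.7. Then came BCL2L11 (15.7, range 12.6 to 18.7), BNIP3 (14.9, range 6.96 to 30.9), PMAIP1 (13.5, range 6.82 to 18.2) and BID (12.0, range 8.55 to 13.9). BAD (7.77, range 7.05 to 8.72), BBC3 (7.66, range 5.68 to 11.6) and BMF (4.25, range 3.42 to 5.80) were the lowest of those tested. The ranges of neighbours in this order overlapped except between BNIP3L and BCL2L11. BNIP3 lay above the lowest BNIP3L level, 24.8, in the 2 libraries that stood apart (30.9 in IKZF1-ko replicate 1 and 26.5 in NT control replicate 2). Its place in the order of means rests on these libraries: in the other 4 it was at 6.96 to 8.93 CPM per kilobase, below PMAIP1 (14.9 to 18.2) and BID (12.4 to 13.9).

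Added up per length, the 8 BH3-only genes came to 57.8, 59.1 and 61.7 CPM per kilobase in IKZF1-ko replicates 1 to 3, against 62.2, 60.8 and 64.4 in NT control replicates 1 to 3. The sums thus lay within a narrow band in all 6 libraries and the groups overlapped. The make-up was less even. BCL2L11 held 31.9% of the sum in IKZF1-ko replicate 1 and 30.7% in NT control replicate 2, more than in any of the other 4 libraries, with the lowest share, 20.8%, in IKZF1-ko replicate 3. PMAIP1 held 11.8% and 12.0% in the same 2 libraries, less than in any of the others, with the highest share, 29.5%, in IKZF1-ko replicate 3. BNIP3 and BNIP3L together came to 86.6, 35.9 and 35.4 CPM per kilobase in IKZF1-ko and 31.7, 73.9 and 33.4 in NT control. In both libraries that stood apart they exceeded the BH3-only sum, and in the other 4 they lay below it. The 6 anti-apoptotic BCL2 family genes (BCL2, BCL2L1, BCL2L2, MCL1, BCL2A1 and BCL2L10) summed to 90.1, 92.9 and 98.3 CPM per kilobase in IKZF1-ko, against 92.2, 85.8 and 94.1 in NT control.

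**Figure D3:**
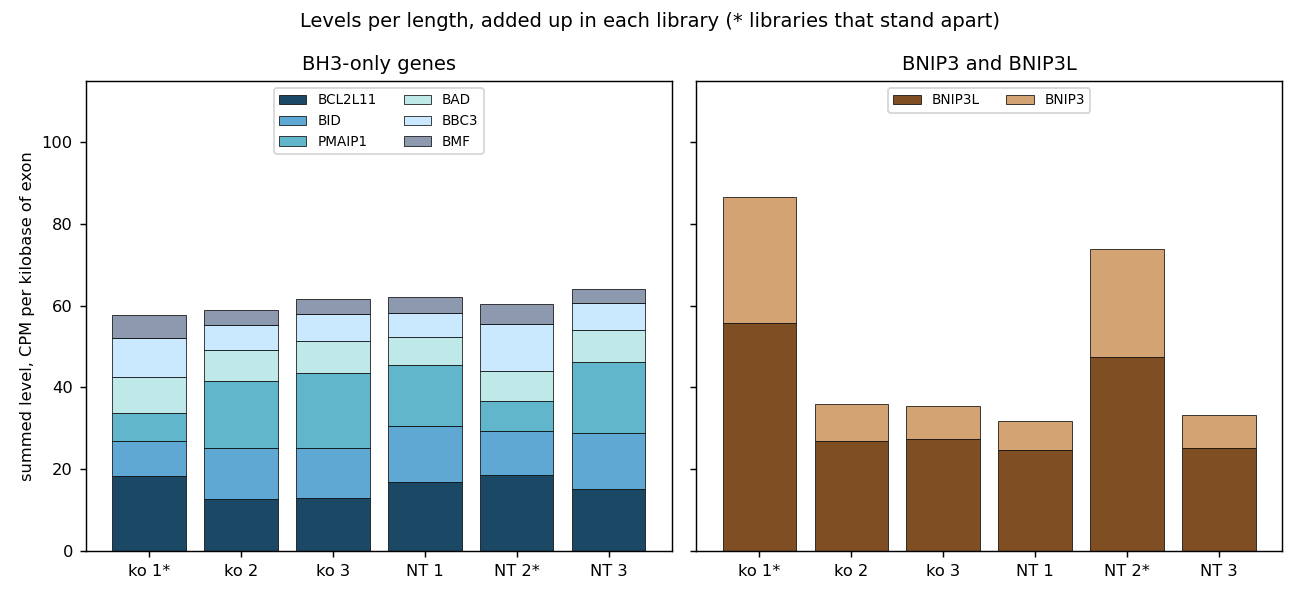
Levels per kilobase of merged exon, stacked by gene, for the BH3-only genes (left panel; BIK and HRK are too low to show and were left out) and for BNIP3 and BNIP3L (right panel) in each library; stars mark the libraries that stand apart. The BH3-only stacks reach about the same height in all libraries, while the BNIP3 and BNIP3L stacks reach 86.6 in IKZF1-ko replicate 1 and 73.9 in NT control replicate 2.

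The pattern of BNIP3 and BNIP3L across libraries was set beside that of 30 other HIF target genes, of which 27 were tested. Their mean log2 level, centred on the 6 libraries, was 0.69, -0.16 and -0.21 in IKZF1-ko replicates 1 to 3, against -0.42, 0.52 and -0.42 in NT control replicates 1 to 3. It was therefore high in the same 2 libraries as BNIP3, and in the other 4 it was higher in both IKZF1-ko libraries. In 22 of the 27 genes both libraries that stood apart lay above the other 4, and in 2 both lay below. Of all tested genes 32.5% were placed above and 31.5% below. The list was chosen with earlier results of these data known, so its count is no independent check. With the library-set term 9 of the 27 rose and 0 fell, and in the 4 libraries 12 rose and 0 fell. With 1 surrogate variable 3 rose and 1 fell. Of all tested genes 6.93%, 7.64% and 4.41% rose in these fits, in that order, and 6.62%, 7.10% and 3.63% fell. The median log2 fold change of the list was 0.16 on group alone and with the term, and 0.03 with the surrogate variable. SLC2A3, a glucose transporter, rose by 0.74 (SE 0.065, edgeR adjusted p = 9.9e-07) with the term, DDIT4, an inhibitor of mTORC1, by 0.67, ENO2, an enolase of glycolysis, by 0.55 and P4HA1, a collagen prolyl hydroxylase, by 0.34, all on the log2 scale. SLC2A3 and DDIT4 also passed with the surrogate variable, while ENO2 and P4HA1 did not (adjusted p = 0.16 and 0.15). Unlike most of the list, DDIT4 was lowest in the libraries that stood apart. It had 81.1 CPM in IKZF1-ko replicate 1 and 71.0 CPM in NT control replicate 2, against 81.7 to 162 CPM in the other 4. Its groups overlapped.

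**Figure D4:**
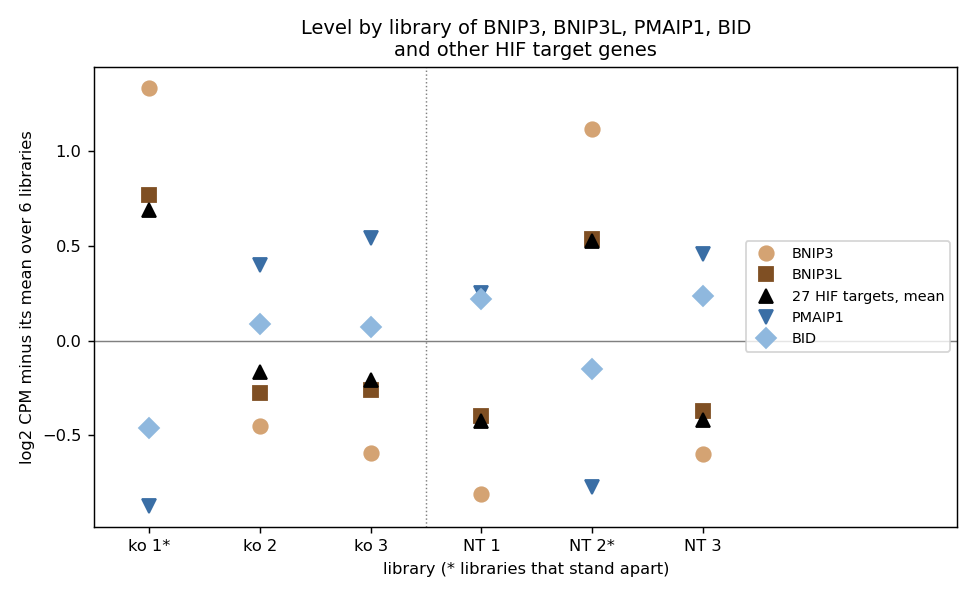
Log2 CPM of BNIP3, BNIP3L, PMAIP1 and BID, each minus its own mean over the 6 libraries, and the mean of the same quantity over 27 other HIF target genes (triangles), by library, IKZF1-ko left of the dotted line and NT control right of it; stars mark the libraries that stand apart. BNIP3, BNIP3L and the HIF targets are above 0 only in the starred libraries, and PMAIP1 and BID are below 0 only there.

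The genes most like a member across the 6 libraries were sought among 10239 other genes of at least 5 CPM, by the root-mean-square difference of centred log2 levels. For BNIP3 they were RNASET2 (difference 0.095), ATP8B3, H2BC20P and WHAMMP2 (0.12), beside a median of 0.89 over all genes searched. EIF4A2 came closest to BNIP3L (0.012), followed by LNPK, CTBS and GBE1 (0.047). TOB1 came closest to BCL2L11 (0.045), followed by TNFAIP3, DIPK2A and NREP (0.057). TOB1 had 33.5, 21.2 and 21.7 CPM in IKZF1-ko, against 28.3, 31.2 and 26.5 CPM in NT control. Replicates 2 and 3 of IKZF1-ko were its lowest, which follows from its choice by likeness to BCL2L11 and is no separate support. Within the family, BBC3 and BNIP3L were nearly as alike (0.20) as BCL2L11 and BMF (0.17), the closest of its pairs, and PMAIP1 and BNIP3 the least alike (1.45). All 6 points of each gene share the split between libraries given above.

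Other genes of the pathway were counted from lists, with the library-set term in edgeR. Of all tested genes 13.5% passed there, 6.93% higher and 6.62% lower. Of 7 tested multidomain BCL2 genes, BCL2L2, an anti-apoptotic gene, rose (log2 0.37, adjusted p = 0.0059), and the effector gene BAX fell by 0.36 (adjusted p = 2.7e-04). The other 5 did not pass, with BCL2 at 0.02 and MCL1 at 0.06. BCL2L2 shares exon positions with BCL2L2-PABPN1 on its own strand, so its level is uncertain. Of 17 tested genes of the caspase cascade, APAF1, the scaffold of the apoptosome, rose (log2 0.33, adjusted p = 8.9e-04). CYCS, which encodes cytochrome c, fell by 0.33 (adjusted p = 3.7e-04) and BIRC5, which encodes survivin, fell by 0.26 (adjusted p = 0.0043). APAF1 was at 127 ± 1.04 CPM in IKZF1-ko and 102 ± 7.91 CPM in NT control (SD, n = 3 each), and the groups did not overlap, which was so for 9.35% of all tested genes.

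Of 16 tested transcription factors known to act on BH3-only genes, FOXO3, which can switch on BCL2L11 and BBC3, rose by 0.20 (adjusted p = 0.026, but 0.061 with a surrogate variable). TP63, counted at a low level, fell by 1.58 (adjusted p = 7.1e-04), with 1.23 ± 0.263 CPM in IKZF1-ko and 3.77 ± 1.85 CPM in NT control. Within the 4 libraries 5 of the 16 rose and 1 fell, where 7.64% of all tested genes rose and 7.10% fell. DDIT3, the stress factor CHOP, was among the 5 there (log2 0.77, adjusted p = 3.0e-05) but was at 0.40 with the term (adjusted p = 0.073), and it is named after its values were seen. HIF1A (-0.05) did not pass with the term.

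Proteins that act on BH3-only proteins or anchor them are encoded by 25 tested genes of kinases, phosphatases, 14-3-3 proteins, dynein light chains and ubiquitin enzymes. None rose and 3 fell: PIM2, a kinase that phosphorylates BAD, by 0.42 (adjusted p = 0.0033), DYNLL1, a dynein light chain that binds BIM, by 0.27 (0.0043) and YWHAH, a 14-3-3 gene, by 0.17 (0.035). Within the 4 libraries 5 fell, and with a surrogate variable 1 fell. Of 26 tested mitophagy and autophagy genes, NBR1, a cargo receptor, rose by 0.25 (adjusted p = 0.013), and the kinase genes ULK1 and PINK1 fell by 0.25 and 0.20. The 4 libraries gave 1 higher and 4 lower. With a surrogate variable 0 rose and 1, ULK1, fell (adjusted p = 0.011), while NBR1 (0.11) and PINK1 (0.056) did not pass. Of 8 tested genes of other proteins with a BH3-like motif, BECN1, the autophagy regulator beclin, fell by 0.19 (adjusted p = 0.024, but 0.24 with a surrogate variable) and the other 7 did not pass. On group alone 0 genes of any of these lists passed. Of all tested genes 13.5% passed with the term, 14.7% in the 4 libraries and 8.04% with the surrogate variable.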

How the data were processed

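Polyadenylated RNA was sequenced on a NovaSeq instrument from libraries of a stranded mRNA kit, per the labels' protocols. The submitters' processing notes name Trimmomatic, STAR and GRCh38, with no version. Which program counted reads, whether it used strand, and on which annotation, is not given in the sources used here. The authors deposited whole-number read counts per Ensembl gene, with no scaling, for 58233 identifiers, of which 57392 had a symbol. The table has 0 columns of other samples. Positions and merged exon lengths are from GENCODE release 29 (GRCh38), promoter windows from RefSeq (GRCh38.p14).

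Members and lists were chosen with earlier results of these data known. Tests were two-sided quasi-likelihood F tests (edgeR 4.0.16, R 4.3.3) with TMM factors, filterByExpr by group, Benjamini-Hochberg adjustment over all genes tested, threshold 0.05. They were fitted on group alone, with a library-set term (sets known from an earlier principal component of these counts), and on the 4 libraries of the larger set. Standard errors are the log2 fold change over the square root of F, and intervals are 95%. A second use of the 6 libraries replaced the term with 1 surrogate variable (sva 3.50.0). CPM use effective library sizes, log2 CPM a prior count of 2. Floors are 3 counts per library and cover counting error only. Named are IKZF1, all members, from each other list up to 4 genes by lowest adjusted p past the threshold in the fit with the term, and the 4 genes most like BNIP3, BNIP3L and BCL2L11. BCL2, MCL1, HIF1A and DDIT3 are named outside that rule, chosen after their values were seen. The fits were run on simulated counts drawn with the library sets given, which does not test how the sets were found. Alternatives were RLE and library-size scaling, other filters, DESeq2 1.42.0, limma-voom (limma 3.58.1), a replicate block and each library left out. Figures used matplotlib 3.10.9.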

Additional observations from a re-analysis of the deposited data

How the results depend on the processing

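On group alone, 0 of the 8 tested genes of the family passed under each of the 13 alternatives run. The count over all genes, 0 in edgeR, was 8 without a filter on low counts, 71 in DESeq2 and 1 in limma-voom. With the library-set term the counts depend on the setting. The 2 genes called higher (BNIP3 and BNIP3L) became 0 with RLE scaling, 0 in DESeq2 and 0 with 1 surrogate variable, and 0 to 1 when 1 library was left out. The 2 called lower (BCL2L11 and BID) became 1 in DESeq2 and 1 with the surrogate variable, and 0 to 1 when 1 library was left out. All genes called, 1765, became 1159 in DESeq2, 2942 with a replicate block, 1047 with the surrogate variable and 811 to 1943 when 1 library was left out, with the low values without IKZF1-ko replicate 3 (811) and without NT control replicate 1 (948). BCL2L11 kept its direction in all 14 alternatives to that fit and its call in 10, and lost the call without IKZF1-ko replicate 2 (adjusted p = 0.11) or 3 (0.16) and without NT control replicate 1 (0.23) or 3 (0.054). BID kept its call in 6, BNIP3 in 6 and BNIP3L in 5. These counts are not of separate checks. Without IKZF1-ko replicate 1 or NT control replicate 2 a set holds a lone library, so both fits in effect repeat the 4 libraries (BCL2L11 at -0.32 in each). The replicate block is also among the alternatives, although the replicate numbers were not taken to pair the samples. In the 4 libraries BCL2L11 kept its call with library-size scaling and in DESeq2, which called 825 genes in place of 1908. With 1 of these libraries left out, a group held 1 library. The log2 fold change was then -0.40 to -0.24 for BCL2L11 and 0.078 to 0.29 for BNIP3.

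Signs turned for genes that had not passed, and for BNIP3 with the surrogate variable (-0.064). With 1 library left out, log2 fold changes on group alone ran from -0.32 to 0.28 for BBC3, -0.21 to 0.41 for PMAIP1, -0.14 to 0.26 for BMF, -0.71 to 1.08 for BNIP3 and -0.26 to 0.55 for BNIP3L. The ends for BNIP3 and BNIP3L came without IKZF1-ko replicate 1 and without NT control replicate 2. With the term they ran from -0.16 to 0.059 for BBC3 and -0.024 to 0.11 for PMAIP1, and in the 4 libraries from -0.038 to 0.16 for BBC3, -0.039 to 0.13 for BAD and -0.075 to 0.12 for BMF. The other pair, with no test, had BBC3 at -0.29 and PMAIP1 at -0.098. The cause was not tested.

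Same-numbered libraries deviated together for replicate 3 but in opposite directions for replicates 1 and 2 (correlation of deviations across genes -0.66, -0.69 and 0.59 for replicates 1, 2 and 3), so the numbers were not taken to pair the samples. With the replicate block the family counts were 0 and 0 on group alone and 2 and 2 with the term. Depth limits BIK and HRK, at or under 4 counts per library.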
